A study of Mus musculus with 2 samples.

Results

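Myosin, troponin, tropomyosin, alpha actinin and actin genes, whose proteins form the contractile filaments of muscle and the cytoskeleton of other cells, were examined in mouse embryoid bodies on day 6. Members were taken by gene symbol (Myh, Myl, Tnnc, Tnni, Tnnt, Tpm and Actn genes with a number, and the actins), and 46 of the 20207 genes in the tables matched. They were divided by the tissue in which each isoform is best known into 14 cardiac, 15 skeletal, 4 smooth muscle and 13 non-muscle genes. Tnni3k matched by its prefix only and encodes a kinase of cardiac muscle, not a troponin; it had no reads in either library. Several genes serve more than 1 tissue, namely Tpm1, Tpm2, Tpm3, Tnni1, Actn2, Myh7b, Myl9, Myl6 and Myl6b in the division used here, so the division is by name and not by cell type.

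Embryoid bodies are aggregates in which embryonic stem cells differentiate in suspension. The cells carried short hairpin RNAs against HoxBlinc, a long noncoding RNA of the HoxB cluster, under doxycycline control. The library with doxycycline came from cultures given 2 ug/ml from day 2, and the library without it from cultures of the same kind that were not induced. Each library pooled RNA of 2 hairpins, there was 1 library per group, and no library of doxycycline-treated cells without hairpins was analysed here, so the effects of the drug and of the hairpins cannot be told apart. The protocol names 2 stem cell lines, R1/E and CGR8 MHC-GFP, without saying which gave the RNA, kept on irradiated feeder fibroblasts until shortly before differentiation. HoxBlinc itself was not analysed here, so its level does not check the labels.

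In striated muscle, myosin heavy chains with their essential and regulatory light chains form the thick filament, and actin with tropomyosin and the troponin complex forms the thin filament. Troponin C binds calcium, troponin I holds the filament off without calcium, and troponin T ties both to tropomyosin. Alpha actinins anchor actin at the Z disc. Most of these proteins come in a cardiac, a fast skeletal and a slow skeletal form from separate genes, and the embryonic heart uses several slow skeletal and atrial forms before it switches to adult ones. Smooth muscle has its own actins and heavy chain, and every cell has cytoplasmic actins and non-muscle myosin.

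Gene counts summed to 24924921 with and 37046449 without doxycycline. The upper limit that a count of 0 allows, 3 counts, was 0.12 CPM (counts scaled by total gene counts) with and 0.081 CPM without doxycycline. The members held 1.42% of gene counts in both. Levels are given as RPKM, which is per gene length, and ratios as CPM with over without doxycycline, with an exact 95% interval. Intervals cover counting error between 2 libraries only; no p-value can be given, and no difference has a replicate check. In this bulk RNA fewer cells of a type and less RNA per cell cannot be told apart. All 8 pluripotency genes listed as markers of undifferentiated cells were above a mean of 1 RPKM, 1 of them at least 2-fold lower with doxycycline, with a summed level of 119 RPKM with and 169 RPKM without doxycycline. Of 12 cardiac marker genes that are not members, such as Nkx2-5 and Tbx20, the sum was 2.77 RPKM with and 17.1 RPKM without, and Nkx2-5 and Tbx5 had no reads with doxycycline. Tbx20, at 0.508 RPKM with and 5.43 RPKM without, had gene models with unlike coordinates in the 2 libraries. Its call and its part in the sum are therefore uncertain. All 4 of the 12 that were above a mean of 1 RPKM were at least 2-fold lower. Each was below 1 RPKM with doxycycline, so it passed this limit only through the library without doxycycline. Without the limit 4 of 12 were lower and 0 higher, against 1.62% and 0.144% of all genes. Of the 8 markers below that mean, 3 intervals of the ratio lay wholly below 1, 1 lay wholly above 1 and the rest included 1. Among all genes with reads and equal gene models, 29.3% of intervals lay below 1 and 19.1% above 1. The 1 above was that of Hspb7, with 25 and 9 counts with and without doxycycline (ratio 4.13, 1.86 to 10.05). The part that fewer cardiac cells have in the results on cardiac members was not tested. Of 11 skeletal muscle markers 1, Des, was above 1 RPKM; the master regulators Myod1 and Myog had 0 and 4 counts with and 5 and 10 counts without doxycycline.

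The promoters of the muscle actin genes and of the light chain genes Myl9 and Myl7 are shown first, since these genes differed in how far they moved while sharing a known regulatory element. The element is the CArG box, the binding site of serum response factor (SRF), through which muscle actin genes are known to be switched on together with the coactivator myocardin. Each line holds the 250 bases before the annotated start, from RefSeq on GRCm38.p6, 5′ to 3′ in the direction of transcription. Capitals mark CArG boxes with at most 1 G or C among the 6 core letters.
Acta2: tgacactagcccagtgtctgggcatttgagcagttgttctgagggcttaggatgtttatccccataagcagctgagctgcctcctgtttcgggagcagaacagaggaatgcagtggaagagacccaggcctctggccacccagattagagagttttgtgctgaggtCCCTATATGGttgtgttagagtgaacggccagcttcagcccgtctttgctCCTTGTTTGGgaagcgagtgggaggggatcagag
Actc1: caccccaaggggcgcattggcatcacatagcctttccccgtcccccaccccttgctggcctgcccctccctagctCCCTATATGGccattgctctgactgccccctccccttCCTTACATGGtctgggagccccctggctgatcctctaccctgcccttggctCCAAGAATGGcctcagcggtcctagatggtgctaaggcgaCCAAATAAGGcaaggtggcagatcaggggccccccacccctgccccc
Acta1: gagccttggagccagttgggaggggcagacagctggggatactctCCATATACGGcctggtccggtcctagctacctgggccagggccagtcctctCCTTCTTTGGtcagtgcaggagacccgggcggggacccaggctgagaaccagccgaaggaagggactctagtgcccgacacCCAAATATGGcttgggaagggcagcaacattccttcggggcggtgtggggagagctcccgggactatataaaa
Myl9: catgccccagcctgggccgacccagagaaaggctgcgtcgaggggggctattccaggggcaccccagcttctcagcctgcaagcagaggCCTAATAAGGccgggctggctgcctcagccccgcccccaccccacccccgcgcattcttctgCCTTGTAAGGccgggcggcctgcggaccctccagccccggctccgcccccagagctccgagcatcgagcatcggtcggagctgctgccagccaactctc
Myl7: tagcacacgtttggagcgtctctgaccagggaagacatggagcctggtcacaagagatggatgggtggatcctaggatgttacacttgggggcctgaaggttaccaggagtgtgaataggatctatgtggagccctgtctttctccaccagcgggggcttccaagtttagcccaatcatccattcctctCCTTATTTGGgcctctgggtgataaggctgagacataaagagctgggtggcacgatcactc
These stretches are chr19:34255374-34255623 (minus strand) for Acta2, chr2:114052876-114053125 (minus) for Actc1, chr8:123894776-123895025 (minus) for Acta1, chr2:156775214-156775463 (plus) for Myl9 and chr11:5898783-5899032 (minus) for Myl7. The actin genes held 2 such boxes in Acta2, 4 in Actc1 and 3 in Acta1, and the light chain genes 2 in Myl9 and 1 in Myl7. Strict CArG boxes, with no G or C in the core, numbered 1 in each of these genes except Acta2, which had 0.

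The contractile genes did not move as a block. Of the 30 members with a mean of at least 1 RPKM over both libraries, 7 were at least 2-fold lower with doxycycline when ratios were taken after adding 0.5 RPKM to both values, which shrinks the ratios of low genes. The background was 2.07% of 10815 genes. Only Tnnt1 was at least 2-fold higher, where the background was 0.25%. The lower genes were Myl7, Tnni1, Actc1, Tnnt2, Tnnt3, Acta2 and Myl9. Over all 46 members without a filter the counts were the same 7 and 1, against 1.62% and 0.144% of all genes. The remaining 22 measured members were within 2-fold, and the median log2 ratio of the 30 was -0.24, against -0.18 for all measured genes. Of the 30, 5 reached 1 RPKM only in the library without doxycycline and 0 only in the library with it. The lower genes Myl7, Actc1 and Tnnt2 were among these and so passed the filter only through that library. The same count over all genes was not made. RPKM of all measured genes was itself lower by median, so this count does not set the members apart.

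By class, 3 of 10 measured cardiac members were lower and 0 higher, with a median of -0.33. Of 6 skeletal members 2 were lower and 1 higher (median -0.16). Both measured smooth muscle genes were lower (median -1.15), and 0 of 12 non-muscle genes passed 2-fold in either direction (median -0.19). Summed RPKM of the smooth muscle genes was 39.8 with and 93.7 without doxycycline, a ratio of 0.424. Both sums were mostly Acta2 (35.1 and 83.4 RPKM), so this ratio is largely that of 1 gene. The sums of the cardiac genes, 662 with and 656 without, were mostly Tpm1, which non-muscle cells use as well.

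**Figure D1:**
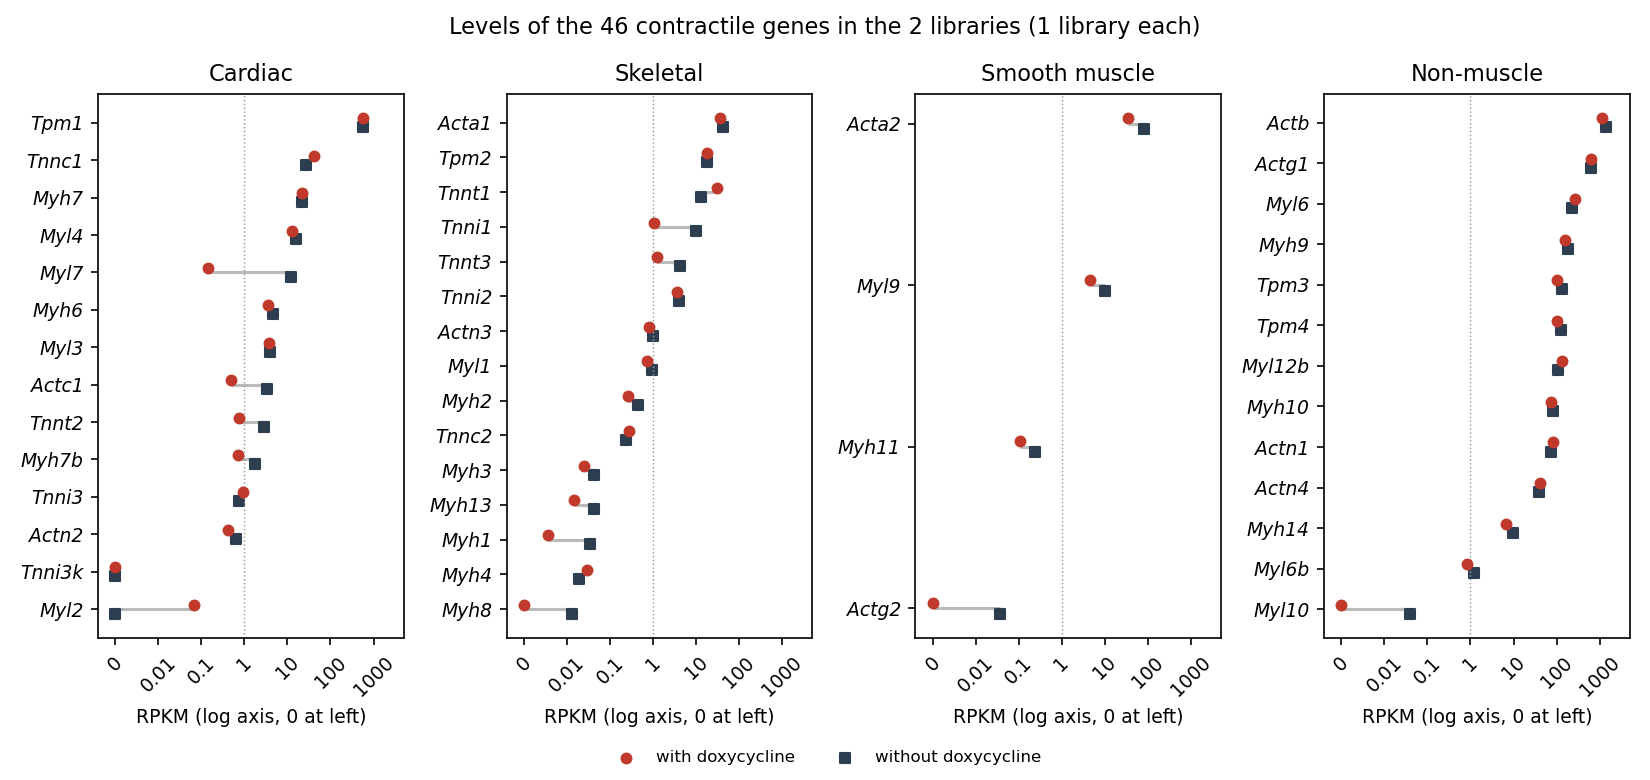
RPKM of all 46 genes on a log axis, by class, with doxycycline (red circles) and without (dark squares); genes with no reads are drawn at 0 on the left. Myl7, Tnni1, Actc1 and the smooth muscle genes lie apart between the libraries, while most non-muscle pairs nearly coincide.

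The counting interval of the ratio lay wholly below 1 for 18 members and wholly above 1 for 10, while 17 intervals included 1. Among all genes with reads and equal gene models the shares were 29.3% and 19.1%. Of the 36 members named here, with a mean of 1 RPKM or at least 30 counts in a library, 20 were lower and 4 higher under each of 5 scalings (CPM, TMM, DESeq2 size factors, RPKM and RMS-normalized RPKM). Over the 13028 genes that pass the same level rule the shares were 48.5% lower and 7.68% higher, so the members' directions alone do not set them apart. The other 12 changed direction between scalings: Myh7, Myl3, Tpm1, Acta1, Tpm2, Tnni2, Actg1, Actn1, Actn4, Myh10, Myh9 and Myl6.

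Among the troponin genes of the thin filament, ratios differed between isoforms of the same subunit. Troponin I was led by different isoforms in the libraries. Tnni1, the slow skeletal form that the embryonic heart also uses, was at 1.04 RPKM with and 10.1 RPKM without doxycycline (52 and 670 counts). Its ratio was 0.115 (0.0853 to 0.153). Tnni2, the fast skeletal form, was at 3.63 and 4.01 RPKM, with 112 counts with and 164 without doxycycline. Its ratio of 1.02 had an interval that included 1 (0.791 to 1.30). Tnni3, the adult cardiac form, was low at 0.919 RPKM with and 0.753 RPKM without (35 and 38 counts; ratio 1.37, 0.840 to 2.23). As a share of troponin I RPKM, Tnni1 made up 18.5% with and 67.9% without doxycycline, while Tnni2 made up 65.0% and 27.0%. Summed troponin I was 5.59 RPKM with and 14.8 RPKM without.

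Troponin T went the other way in total. Tnnt1, the slow skeletal form, was at 30.2 RPKM with and 12.8 RPKM without doxycycline (1303 and 735 counts). It had the highest ratio of the 36 named members, 2.63 (2.41 to 2.89). Tnnt2, the cardiac form and a usual marker of cardiomyocytes, was at 0.761 RPKM with and 2.94 RPKM without doxycycline (41 and 209 counts). Its ratio was 0.292 (0.203 to 0.409). Tnnt3, the fast skeletal form, was at 1.254 and 4.199 RPKM with and without doxycycline (61 and 256 counts), a ratio of 0.354 (0.263 to 0.470). Its RPKM and counts implied gene lengths that differed by 5.77% between the tables. Tnnt1 held 93.7% of troponin T RPKM with and 64.3% without doxycycline, and the family sum was 32.2 RPKM with and 20.0 RPKM without. Relative to Tnnt1, Tnnt2 counts stood at 0.111 of their proportion without doxycycline (exact 95% interval 0.0763 to 0.158), a ratio that no library scaling can alter.

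Troponin C was nearly all Tnnc1, the form shared by slow skeletal and cardiac muscle, at 41.6 RPKM with and 26.6 RPKM without doxycycline (1352 and 1145 counts). Its ratio of 1.76 (1.62 to 1.90) was opposite to that of Tnnt2, and the ratio of Tnnc1 to Tnnt2 was 6.02 times as large with doxycycline (4.24 to 8.71). Tnnc2, the fast skeletal form, had 9 counts with and 10 without.

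Troponin I and T genes lie in neighbouring pairs. On chromosome 1 (mm9, as in the authors' tables) Tnni1 (137695998 to 137707566) and Tnnt2 (137732963 to 137748838) lie 25396 bases apart, and both were lower with doxycycline. On chromosome 7 Tnnt1 (4456265 to 4467577) and Tnni3 (4469910 to 4474045) lie 2332 bases apart. Of that pair Tnnt1 was higher, while the interval of Tnni3 included 1. Farther along chromosome 7, Tnni2 (149628373 to 149630310) and Tnnt3 (149684741 to 149701913) lie 54430 bases apart; Tnnt3 was lower and the interval of Tnni2 included 1.

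**Figure D2:**
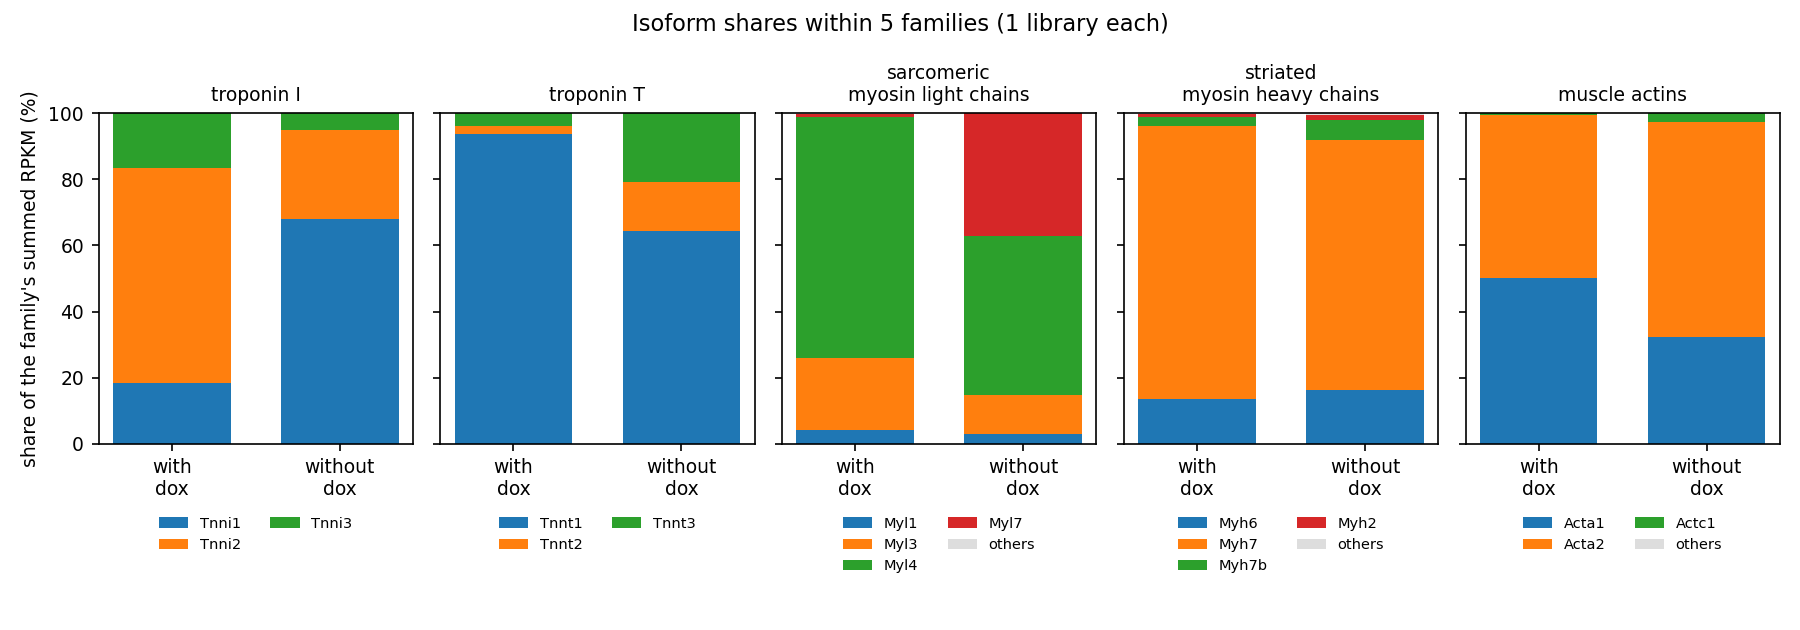
Share of each isoform in the summed RPKM of 5 families, in percent, with doxycycline (left bar) and without (right bar). Tnni1 makes up 18.5% with and 67.9% without doxycycline, Tnnt1 93.7% and 64.3%, and Myl7 0.853% and 37.1%, while Myh7 leads the heavy chains in both.

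Among sarcomeric light chains 1 gene, Myl7, was lower by far more than the others. Myl7, the atrial regulatory light chain and an early marker of cardiomyocytes, was at 0.147 RPKM with and 12.2 RPKM without doxycycline (4 and 441 counts). Its ratio was 0.0135 (0.00366 to 0.0348), the lowest of the named members. Myl4, the atrial and embryonic essential light chain, was at 12.5 RPKM with and 15.8 RPKM without (511 and 857 counts). Its ratio was 0.886 (0.793 to 0.990), an interval that came to include 1 when counts were halved to allow for read pairs counted per mate (0.759 to 1.04). Relative to Myl4, Myl7 counts stood at 0.0152 of their proportion without doxycycline (0.00411 to 0.0397). Myl3, the ventricular and slow skeletal essential chain, had 156 counts with and 215 without (ratio 1.08, 0.872 to 1.33). Myl2, the ventricular regulatory chain, had 2 counts with and 0 without. Myl1, the fast skeletal essential chain, had 27 and 47 counts with and without doxycycline (ratio 0.854, 0.511 to 1.40). Myl7 thus made up 0.853% of sarcomeric light chain RPKM with and 37.1% without doxycycline, and Myl4 72.8% and 48.2%.

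Myosin heavy chains of striated muscle were led by Myh7, the slow and cardiac beta chain, in both libraries. Myh7 was at 21.6 RPKM with and 21.7 RPKM without doxycycline, which was 82.4% and 75.6% of the family. Myh6, the cardiac alpha chain, was at 3.59 RPKM with and 4.67 RPKM without. Its ratio of 0.861 (0.796 to 0.932) differed from the 1.12 of Myh7 (1.08 to 1.15): relative to Myh7, Myh6 counts stood at 0.772 of their proportion without doxycycline (0.709 to 0.841). Myh6 and Myh7 lie 4080 bases apart on chromosome 14 (mm9, 55560758 to 55585444 and 55589525 to 55613386). Of the 50-base words in annotated Myh6 transcripts 20.2% also occur in Myh7, and 15.6% of those in Myh7 occur in Myh6, so the division of reads between them is uncertain. Whether the line named CGR8 MHC-GFP gave the RNA is not stated, and reads from a construct with myosin sequence could not be told apart from those of these genes. Myh7b, a slow tonic chain of heart and specialized skeletal muscle, shares no such word with other genes. It was at 0.695 RPKM with and 1.73 RPKM without doxycycline (198 and 652 counts; ratio 0.451, 0.383 to 0.530), short of 2-fold on the RPKM + 0.5 scale at a log2 ratio of -0.90.

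Each of these 3 heavy chain genes carries a microRNA in an intron, on the gene's own strand, and these are known as regulators of gene expression in heart and skeletal muscle. Mature microRNAs were not measured here; the sequences show which host goes with which seed (bases 2 to 8, in capitals, RefSeq, GRCm38.p6).
mmu-miR-208a-3p in Myh6: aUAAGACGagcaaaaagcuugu
mmu-miR-208b-3p in Myh7: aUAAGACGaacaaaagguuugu
mmu-miR-499-5p in Myh7b: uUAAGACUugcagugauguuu
The Myh6 and Myh7 microRNAs share the seed, and that of Myh7b ends in another base. Their hairpins lie at chr14:54949060-54949142 (minus strand, intron 29 of Myh6), chr14:54975700-54975776 (minus, intron 31 of Myh7) and chr2:155622880-155622958 (plus, intron 19 of Myh7b). Of the 3 hosts, Myh7b was lowest by ratio at 0.451, and Myh6 and Myh7 were at 0.861 and 1.12. A link between seed and host ratio was not tested.

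The skeletal heavy chains form a cluster of 6 genes on chromosome 11 (mm9, 66891802 to 67185004), with 93 counts with and 220 without doxycycline. Myh2, a fast chain, held most of these with 73 and 164 counts (ratio 0.662, 0.495 to 0.877). Myh1, Myh3, Myh4, Myh8 and Myh13 had at most 16 counts in a library. The interval of Myh1, with 1 and 13 counts, lay below 1 (0.00269 to 0.761), though not when counts were halved, and those of the other 4 included 1. Low counts in these libraries have a background that differs between them. Chemosensory receptor genes, which such cells are not known to use, had reads at 76 of 1265 genes with and 665 without doxycycline. Their mean after trimming 10% at each end was 0.0167 RPKM without doxycycline, which corresponds to 36.9 of the 220 cluster counts. With doxycycline fewer genes had reads than were trimmed at the upper end. The trimmed mean of 0 there follows from the trimming and does not show that background was absent. The division of reads within the cluster is also uncertain, since 25.4% of 50-base words in Myh1 and 22.9% of those in Myh2 occur in other genes. The embryonic chain Myh3 and the perinatal chain Myh8, used by forming skeletal muscle, had 7 and 0 counts with and 16 and 5 without doxycycline.

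Muscle actins differed by isoform as well. Actc1, cardiac actin, was at 0.483 RPKM with and 3.38 RPKM without doxycycline (31 and 288 counts), a ratio of 0.160 (0.107 to 0.232). Acta2, smooth muscle actin, which early cardiomyocytes and fibroblasts also use, was at 35.1 RPKM with and 83.4 RPKM without (2890 and 9101 counts). Its ratio was 0.472 (0.453 to 0.492). Acta1, skeletal actin, was at 35.9 RPKM with and 41.2 RPKM without doxycycline (2377 and 3621 counts), and the interval of its ratio, 0.976, included 1 (0.926 to 1.03). The ratio of Acta1 to Actc1 was therefore 6.10 times as large with doxycycline (4.18 to 9.18), and that of Actc1 to Acta2 0.339 times (0.226 to 0.493). Acta1 and Acta2 made up 50.2% and 49.1% of muscle actin RPKM with, and 32.2% and 65.1% without doxycycline. Annotated transcripts of Actc1 and Actg2 share no 50-base word with other genes, Acta2 0.326% and Acta1 2.02%. Actg2, enteric smooth muscle actin, had 0 counts with and 3 without.

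The promoters printed above set these values beside the CArG boxes. Acta1, with 3 boxes of which 1 is strict (CCAAATATGG), had a ratio of 0.976, while Actc1, with 4 of which 1 is strict (CCAAATAAGG), had a ratio of 0.160. Acta2, with CCCTATATGG and CCTTGTTTGG, had 0.472, and Myl9 and Myl7 each carried 1 strict box (CCTAATAAGG and CCTTATTTGG). Windows of 250 bases before and 50 after the start were searched on either strand. Strict boxes were found in 9 of 48 member promoters, from 9 of 40 genes, and in 1.63% of all 32851 promoters. The relaxed form was found in 14 of 48 member promoters, from 13 of 40 genes, and in 9.98% of all promoters. By call, among genes with a listed promoter, 3 of 6 lower genes and 4 of 20 genes within 2-fold held a strict box. Those within 2-fold were Acta1, Actg1, Myl3 and Myl6. Tnnt3, also lower, had no listed promoter. Sites of MEF2, another muscle transcription factor, were in 4 of 48 member promoters and 3.19% of all promoters. They belonged to 4 genes, none of them measured. These matches describe letters in the window and not use of a site. Srf, named after its values were seen, was at 9.25 RPKM with and 14.8 RPKM without doxycycline (ratio 0.701, 0.662 to 0.742). Its coactivator Myocd, also named after its values were seen, had 8 and 195 counts, a ratio of 0.0610 (0.0260 to 0.123). The other SRF coactivators in the regulator list, Mkl1 and Mkl2, were more abundant and closer to 1. Mkl1 was at 4.29 RPKM with and 5.53 RPKM without doxycycline (ratio 0.870, 0.799 to 0.947). Mkl2 was at 3.84 and 4.09 RPKM (1.05, 0.984 to 1.13). The part of these factors in the ratios of the members was not tested.

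Smooth muscle genes were lower to a similar degree. Myl9, a regulatory light chain of smooth muscle also made by other cells, was at 4.54 RPKM with and 9.99 RPKM without doxycycline (227 and 663 counts; ratio 0.509, 0.436 to 0.593). Myh11, the smooth muscle heavy chain and the most specific of these markers, was low in both, at 0.108 and 0.235 RPKM with and without (33 and 95 counts; ratio 0.516, 0.337 to 0.775). Acta2 relative to Myh11 did not differ beyond counting error (0.914 times, 0.608 to 1.41). On the CPM scale Myl9 and Myh11 fell short of 2-fold. Other genes of the smooth muscle apparatus mostly stayed closer. Of 14 measured in a list of 17 partners 1 was at least 2-fold lower and 0 higher, the calponin Cnn1 (2.36 RPKM with and 5.26 RPKM without; ratio 0.504, 0.430 to 0.589). The integrin Itga8 (ratio 0.533, 0.470 to 0.604) and the adhesion molecule Mcam (0.687, 0.640 to 0.737) came next by log2 ratio of RPKM + 0.5, while by CPM ratio the myosin phosphatase subunit Ppp1r12b (0.628, 0.527 to 0.746) lay below Mcam. Tagln, an abundant actin binding protein of smooth muscle named after its values were seen, was at 127 RPKM with and 141 RPKM without (ratio 1.01, 0.983 to 1.04). The measured fibroblast markers were lower as well. Of 12 such genes 7 were measured, and 5 of these passed 2-fold downwards and 0 upwards. The intervals of the 5 markers below the filter all included 1. Without a filter the counts were 5 and 0 of 12, against 1.62% and 0.144% of all genes. Of the 5 lower markers, Pdgfra had gene models with unlike coordinates in the 2 libraries. Pdgfra and Pdgfrb were below 1 RPKM with doxycycline, so they passed the filter only through the library without it. The summed level of the 12 was 51.2 RPKM with and 97.1 RPKM without doxycycline, and Fap had 0 counts with and 1 count without. Most of this sum was Col1a2 and Col1a1, with ratios of 0.652 (0.634 to 0.670) and 0.684 (0.657 to 0.712), short of 2-fold. The part of fibroblasts in the smooth muscle result was not tested.

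**Figure D3:**
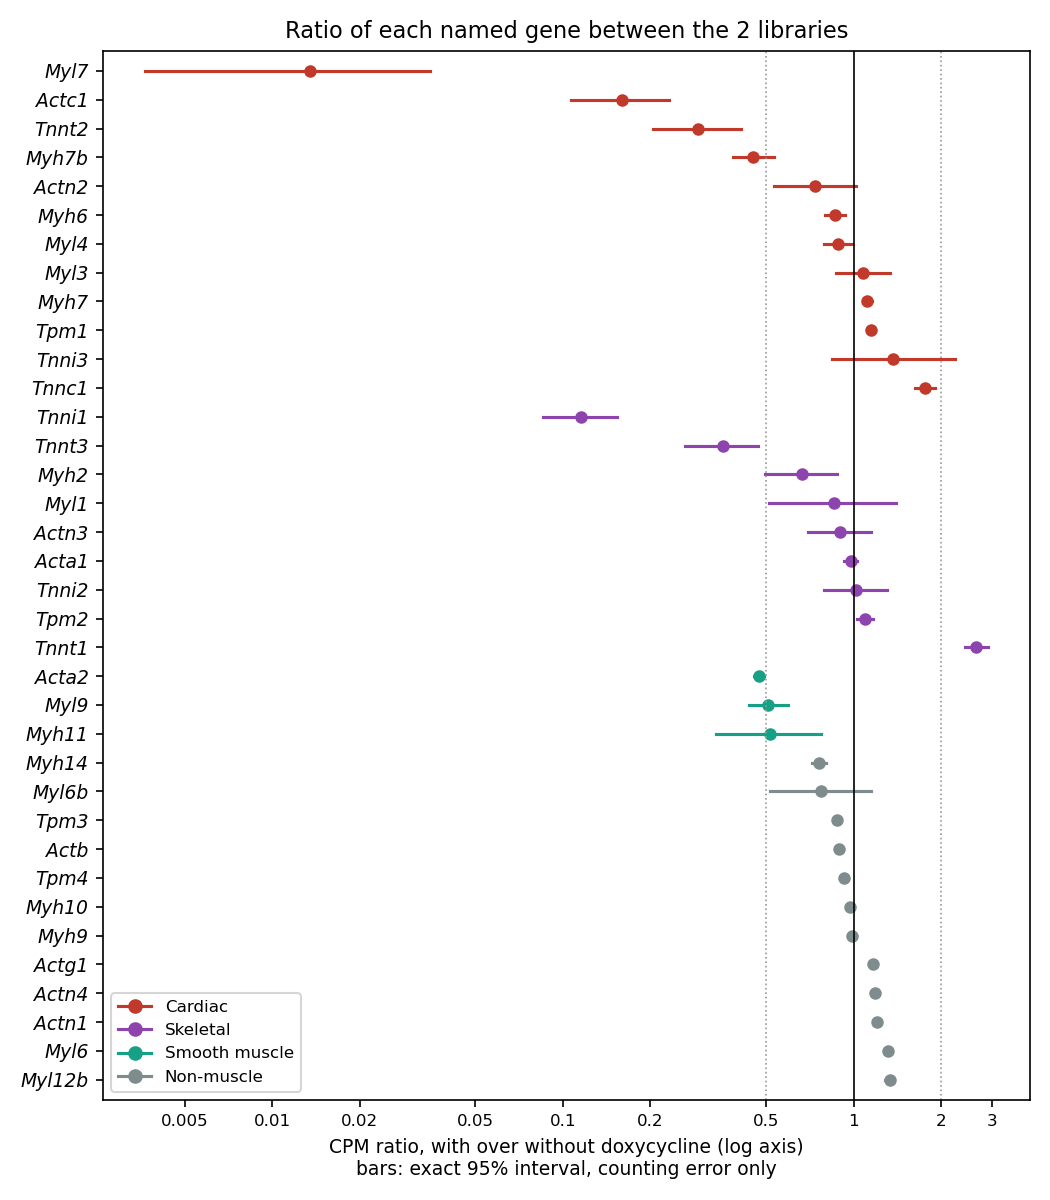
CPM ratio, with over without doxycycline, of the 36 named genes on a log axis, coloured by class, with exact 95% intervals for counting error; dotted lines mark 2-fold. Myl7 stands at 0.0135 and Tnnt1 at 2.63, and the non-muscle genes shown lie between 0.761 and 1.33.

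The 12 named non-muscle isoforms, which hold most of the members' summed RPKM, lay between 0.761 and 1.33 in ratio. Actb and Actg1, the cytoplasmic actins, were at 1135 and 640 RPKM with and 1425 and 617 RPKM without doxycycline. Actb had a ratio of 0.894 (0.887 to 0.901) and Actg1 one of 1.16 (1.15 to 1.18), and Actg1 went below 1 in RMS-normalized RPKM (0.881). Of the 50-base words of Actg1 37.4% also occur in other genes, mostly the pseudogene Gm12715, and 9.12% of those of Actb. Non-muscle heavy chains followed the order Myh9, Myh10, Myh14 in both libraries. Myh9 was at 160 RPKM with and 181 RPKM without, Myh10 at 72.7 and 83.8, and Myh14 at 6.65 and 9.80. Myh14 had the lowest ratio of the class (0.761, 0.720 to 0.804).

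Of the non-muscle light chains, Myl12b, a regulatory chain, was highest by ratio, at 131 RPKM with and 110 RPKM without doxycycline (ratio 1.33, 1.28 to 1.38). It kept a ratio above 1 under each of the 5 scalings, though 19.1% of its 50-base words occur in other genes, most of them in Myl12a. Myl6, the essential chain of smooth muscle and non-muscle cells, was at 266 and 228 RPKM with and without (1.31, 1.27 to 1.35), with 0.991 in RMS-normalized RPKM. Its neighbour Myl6b, 331 bases away on chromosome 10, was at 0.843 and 1.23 RPKM (0.772, 0.513 to 1.15). Myl10 had 0 counts with and 2 without.

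Tropomyosins, which lie along the actin filament, were dominated by Tpm1, with 71.9% of family RPKM with and 67.0% without doxycycline. Tpm1 was at 576 RPKM with and 561 RPKM without, a level that only Actb and Actg1 exceeded among the members. It stood at a ratio of 1.15 (1.14 to 1.16) in CPM and 0.871 in RMS-normalized RPKM. Tpm4 had a ratio of 0.922 (0.900 to 0.946) and Tpm3 one of 0.875 (0.853 to 0.898), with 23.2% of Tpm3 words found in other genes. The proportion of Tpm1 to Tpm4 was 1.25 times as large with doxycycline (1.21 to 1.28). Gene-level values cannot separate the striated from the non-muscle transcripts of Tpm1 and Tpm3. Tpm2 was at 17.8 and 18.2 RPKM (ratio 1.10, 1.03 to 1.17, and 0.978 by RPKM).

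Of the alpha actinins, 0 passed 2-fold. The non-muscle Actn1 and Actn4 were at 80.4 and 40.9 RPKM with and 75.1 and 38.7 RPKM without doxycycline, with ratios of 1.20 (1.17 to 1.23) and 1.19 (1.15 to 1.22) that went below 1 in RMS-normalized RPKM (0.910 and 0.900). Actn2, the Z disc form of heart and skeletal muscle, was at 0.428 RPKM with and 0.651 RPKM without (59 and 119 counts; ratio 0.737, 0.530 to 1.02). Relative to Actn1, Actn2 counts stood at 0.614 of their proportion without doxycycline (0.442 to 0.847). Actn3, the fast fibre form, had 106 and 176 counts with and without (ratio 0.895, 0.697 to 1.15).

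Partners of the same filaments were set beside the members. Among 36 listed sarcomere partner genes, 10 were measured and 0 passed 2-fold in either direction (median log2 ratio -0.09). The ubiquitin ligase Trim63, at 2.51 RPKM with and 1.14 RPKM without, had a CPM ratio of 2.47 (1.98 to 3.08) that came under 2-fold after adding 0.5 RPKM. The others named were the thin filament protein Nebl, with a ratio of 0.529 (0.414 to 0.669), and the stress-responsive Ankrd1, with 0.611 (0.478 to 0.775). Named after their values were seen, the remaining measured partners went both ways. Intervals lay wholly above 1 for Trim54 (1.73, 1.59 to 1.88), Ldb3 (1.66, 1.46 to 1.89), Myom1 (1.66, 1.48 to 1.86) and Flnc (1.17, 1.15 to 1.18). That of Des lay below 1 (0.897, 0.865 to 0.931), and those of Mylpf and Unc45b included 1. Of 25 partners below the filter that had an interval, 7 intervals lay wholly below 1 and 2 wholly above 1. Among all genes with reads and equal gene models the shares were 29.3% and 19.1%. Those shares include higher genes with narrower intervals, and no share over equally low genes was made. The comparison therefore does not show whether these 25 partners, or the list as a whole, stand out. Named after their values were seen, titin (Ttn), the giant spring of the sarcomere, had 148 counts with and 2023 without doxycycline (ratio 0.109, 0.0914 to 0.129). The cardiac light chain kinase Mylk3 had 2 and 75 counts (0.0396, 0.00471 to 0.148). The 2 below the filter with intervals above 1 were the Z disc protein Myoz1, with 21 and 6 counts (5.202, 2.03 to 15.8), and Murc, with 64 and 62 (1.53, 1.07 to 2.21). Of the smooth muscle partners below the filter, 2 of 3 intervals lay below 1, those of Myocd and of the light chain kinase Mylk, with 65 and 317 counts (0.305, 0.230 to 0.399). Of 5 measured calcium handling genes and 28 measured genes that control non-muscle actomyosin, 0 passed 2-fold in either direction. The calcium handling list held 15 genes. Of 9 below the filter that had an interval, 4 intervals lay wholly below 1 and 0 wholly above 1. Named after their values were seen, these included Slc8a1 (88 and 475 counts, ratio 0.275) and Ryr2 (116 and 394, 0.438). The others were Pln (5 and 30, 0.248) and Cacna1s (45 and 107, 0.625). The measured genes with the largest log2 ratios of RPKM + 0.5 were Asph, Atp2a1 and Jph1 among the calcium handling genes, with CPM ratios of 0.943, 0.981 and 1.21. Among the actomyosin genes they were Rhob, Cap2 and Rock2, with CPM ratios of 0.758, 0.796 and 1.48. Of 13 measured muscle regulators 7 were at least 2-fold lower and 0 higher. Each of the 7 was below 1 RPKM with doxycycline, so it passed the filter only through the library without doxycycline. Without a filter 9 of 24 were lower and 0 higher, against 1.62% and 0.144% of all genes. Of the 7, Tbx20 had gene models with unlike coordinates in the 2 libraries. Hand1 was at 0.855 RPKM with and 14.4 RPKM without, Hand2 had 6 and 409 counts, and Nkx2-5 0 and 274.

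**Figure D4:**
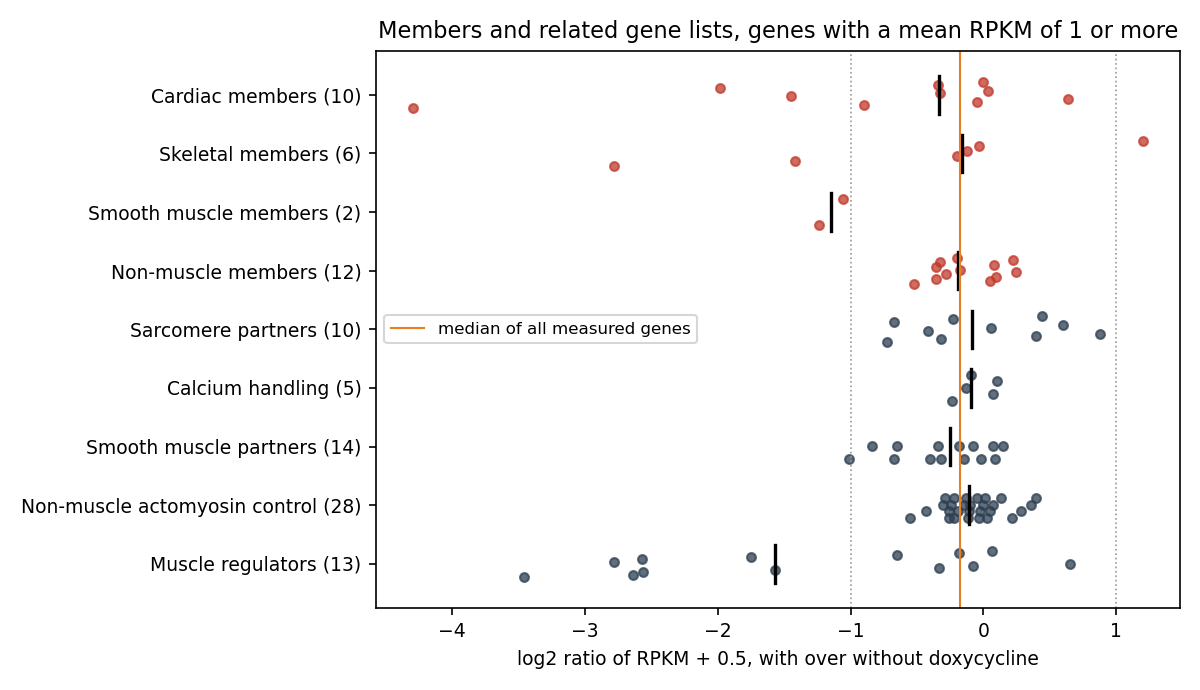
Log2 ratio of RPKM + 0.5, with over without doxycycline, of measured members by class (red) and of related gene lists (dark), with list medians as black bars, the median of all measured genes (-0.18) as an orange line and 2-fold as dotted lines; the number of genes is in parentheses. Muscle regulators spread to -3.46 and cardiac members to -4.30, while non-muscle members and their control genes stay within 2-fold.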

How the data were processed

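Total RNA of day 6 embryoid bodies was sequenced as paired ends, per the labels' protocols. The submitters' processing notes name Bowtie2 and mm9. For the annotation, the counting program and strandedness, the step is not given in the sources used here. Per the file headers, the authors deposited RPKM and a read count per gene. The deposited counts are estimated counts (825 values with and 1062 without doxycycline were not whole; 6 members had such a value) and were rounded here. The authors also deposited an RMS-normalized RPKM, a ratio to the library's root mean square RPKM.

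The library tables were joined by gene name. Of all genes 237 had coordinates that differed between the tables, among them 0 members but the listed genes Tbx20, Pdgfra and Mybpc2. Genes with exactly 2 counts outnumbered those with 1 (603 to 296 with, 846 to 583 without doxycycline), as when each mate of a pair is counted, and intervals are then too narrow. Calls were at 2-fold on log2(RPKM + 0.5), for genes with a mean of at least 1 RPKM. Ratios of CPM had exact conditional binomial (Clopper-Pearson) 95% intervals, and ratios between 2 genes were conditional odds ratios (scipy 1.17.1). No test was made, since each group held 1 library. Members, classes and lists were chosen with earlier results of these data known. Named genes were members with a mean of 1 RPKM or at least 30 counts, and up to 3 genes per list with the largest log2 ratio. Scalings came from edgeR 4.0.16 (TMM) and DESeq2 1.42.0, without their tests. On simulated counts for 10720 genes, the calls took in 100% of 200 genes changed 4-fold and 0 of the rest, while the true ratio lay inside 95.3% of intervals. These counts held counting error only, without variation between cultures or mates counted separately. The outcome followed from that setting, so it checks the calculation and not the calls on the real libraries. Shared words of 50 bases were counted in GENCODE M21 transcripts, and promoters and microRNAs are from RefSeq (GRCm38.p6), whose coordinates are not those of mm9.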

Additional observations from a re-analysis of the deposited data

How the results depend on the processing

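No paired analysis was possible because each group held 1 library, and no library could be left out. The count of lower members was 5 to 8 under all alternatives but a mean of at least 5 RPKM, where 4 were lower (1 cardiac, 1 skeletal). The count of higher members was 1, but 0 in RMS-normalized RPKM, where Tnnt1 came just under 2-fold, and 2 at 1.5-fold, with 1 cardiac gene (Tnnc1) added. Without genes shared between classes 1 skeletal and 1 smooth muscle gene were lower. The smooth muscle count was also 1 with a pseudocount of 1 RPKM, centred on the median ratio, in CPM, and under TMM and DESeq2 scaling, since Myl9 lies near 2-fold. The smooth muscle median relative to all genes was -0.97, but -0.57 with no filter and -1.06 without the shared gene. Over all measured genes the median log2 ratio stood at -0.18 in RPKM, -0.03 in CPM, 0.04 with TMM and -0.40 in RMS-normalized RPKM. Counts in place of RPKM gave shares of 26.1% with and 76.8% without doxycycline for Tnni1, 61.3% without for Tnnt1, 54.9% without for Myl4, and 54.5% and 69.9% for Acta2. Centred, 1 sarcomere partner was higher and 0 smooth muscle partners lower, and with no filter 2 smooth muscle partners were lower. With counts halved, the 10 ratios between paired genes stayed on the same side of 1, and the intervals of the 9 that had excluded 1 still did. Depth limits the low members: with 4 counts, Myl7 with doxycycline had an interval of 0.00366 to 0.0348.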
